A study of Mus musculus with 9 samples.

Results

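The genes described here are Nox1 and the NADPH oxidase and dual oxidase genes measured beside it in sorted mouse intestinal epithelium. They are 10 genes of the 78239 in the count table, chosen by symbol: the catalytic subunits Nox1, Nox4, Duox1 and Duox2, the partner proteins Noxo1, Noxa1, Cyba and Rac1, and the maturation factors Duoxa1 and Duoxa2. Of these, 9 passed the filter on low counts, which kept 20610 genes, and Nox4 did not. The study's title names Nox1 as a marker of a regional population of colon stem cells.

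Polyadenylated RNA was sequenced from epithelial cells of 8-week-old Lgr5-2A-eGFP mice, which report Lgr5, a receptor of intestinal stem cells, by green fluorescent protein (GFP). There were 3 libraries of colon GFP-high cells, 3 of colon GFP-negative cells and 3 of small intestine, and all 9 came from mice with the reporter. At least 30000 cells per fraction were sorted from colon and at least 50000 from small intestine. The labels name neither the fraction sorted from small intestine, nor the stretch of colon, nor whether the libraries of a group came from different animals. The p-values therefore measure the spread between these libraries, which may be technical.

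NADPH oxidases move electrons from NADPH across a membrane to oxygen and so make superoxide or hydrogen peroxide. In the colon epithelium the NOX1 enzyme works as a complex: NOX1 sits in the membrane with p22phox, the product of Cyba, and is switched on by the organiser NOXO1, the activator NOXA1 and the GTPase RAC1. The dual oxidases DUOX1 and DUOX2 release hydrogen peroxide and need the factors encoded by Duoxa1 and Duoxa2 to leave the endoplasmic reticulum. DUOX2 is known in the gut as an enzyme induced by microbes.

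Libraries held 86621513 to 106673547 counts in all, so that 3 counts amount to 0.0232 to 0.0411 CPM, the count scaled to library size. Lgr5 went against the labels in the colon libraries numbered 2: the level was 43.5, 0.96 and 73.0 CPM in the libraries labelled colon GFP-high 1, 2 and 3, against 2.84, 62.1 and 6.28 CPM in those labelled colon GFP-negative. Small intestine had 57.9, 120 and 209 CPM. Member fold changes between colon fractions are therefore given with and without that pair. The summed level of 13 leukocyte markers was 3.19 to 364 CPM in GFP-high colon, 67.5 to 2905 CPM in GFP-negative colon and 14.7 to 49.9 CPM in small intestinal libraries, with the highest value in colon GFP-negative replicate 3. The 6 epithelial markers summed to 10290 to 25228 CPM over the 9 libraries.

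The 300 bases around the RefSeq starts of 4 members are shown. Nox1 and Noxa1 are the enzyme and the member nearest to it in pattern across the libraries, and Duox2 and Duoxa2 are a divergent pair of enzyme and maturation factor. Each window runs from 250 bases before the start to 50 after it on GRCm38.p6, 5′ to 3′ on the gene's strand, and capitals mark a match to a searched motif. The Nox1 window is chrX:134111805-134112104 (minus strand), the Noxa1 window chr2:25095156-25095455 (minus), the Duox2 window chr2:122298178-122298477 (minus) and the Duoxa2 window chr2:122298650-122298949 (plus).
Nox1: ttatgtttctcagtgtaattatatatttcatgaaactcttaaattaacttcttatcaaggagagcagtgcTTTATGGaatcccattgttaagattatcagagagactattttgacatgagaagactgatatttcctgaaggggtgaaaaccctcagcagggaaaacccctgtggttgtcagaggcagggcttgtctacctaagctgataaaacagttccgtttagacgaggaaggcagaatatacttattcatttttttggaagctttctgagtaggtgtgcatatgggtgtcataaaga
Noxa1: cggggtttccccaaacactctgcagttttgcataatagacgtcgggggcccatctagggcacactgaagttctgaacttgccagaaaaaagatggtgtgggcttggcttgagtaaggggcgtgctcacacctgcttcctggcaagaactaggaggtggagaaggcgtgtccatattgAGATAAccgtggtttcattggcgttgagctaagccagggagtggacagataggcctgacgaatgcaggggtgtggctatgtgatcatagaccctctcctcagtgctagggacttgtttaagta
Duox2: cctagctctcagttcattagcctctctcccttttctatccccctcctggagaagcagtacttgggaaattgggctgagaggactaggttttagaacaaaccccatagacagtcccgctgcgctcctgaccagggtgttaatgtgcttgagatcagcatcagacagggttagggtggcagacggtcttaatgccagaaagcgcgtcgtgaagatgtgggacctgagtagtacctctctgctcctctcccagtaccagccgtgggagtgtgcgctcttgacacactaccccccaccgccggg
Duoxa2: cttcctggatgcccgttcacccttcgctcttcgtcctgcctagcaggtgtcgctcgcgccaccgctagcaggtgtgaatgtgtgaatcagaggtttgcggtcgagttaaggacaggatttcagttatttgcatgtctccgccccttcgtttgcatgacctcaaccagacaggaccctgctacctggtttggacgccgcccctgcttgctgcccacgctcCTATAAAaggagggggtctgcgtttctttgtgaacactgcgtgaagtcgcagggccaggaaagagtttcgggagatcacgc

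The motifs, searched on both strands, were TTTATNG for the intestinal Cdx factors, AGATAA for GATA factors, the HNF1 motif, CTTTGAT for the TCF/LEF factors of Wnt signalling and TATAAA for a TATA box. The Nox1 window held TTTATGG, a Cdx match, 180 bases before the start, as 10.9% of the 32851 RefSeq promoter windows hold one. The Noxa1 window held AGATAA 73 bases before the start, a match found in 11.2% of windows. In Duoxa2 the letters CTATAAA, 31 bases before the start, match both the reverse of the Cdx motif and, from the next base, the TATA box, which 13.6% of windows hold. The Duox2, Duox1, Duoxa1, Noxo1 and Nox4 windows held none of the 5 motifs, and the Cyba window held a reversed GATA match, TTATCT, 220 bases before the start. HNF1 matches were in 0.399% and TCF/LEF matches in 3.73% of windows, and in none of the 9 member windows searched. The Nox1 window was 38.0% G and C and the Noxo1 window 80.3%, against a median of 52.7% over all windows. Rac1 was not among the windows searched. A match is a description of letters and does not show binding.

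The catalytic subunit of the colonic complex, Nox1 (ENSMUSG00000031257.15), lies at X:134086421-134221956 on the minus strand of GRCm38 in GENCODE M21, and the RefSeq window above lies inside that span. Nox1 stood at 49.97, 16.95 and 74.4 CPM in GFP-high colon libraries 1, 2 and 3, against 34.2, 117 and 9.82 CPM in GFP-negative colon and 5.83, 14.6 and 7.82 CPM in small intestinal libraries. All 3 colon GFP-high libraries were above all 3 small intestinal ones, and 2 of 3 colon GFP-negative libraries were, while the colon fractions overlapped. With CPM on total counts, without the deposited factors, colon GFP-high replicate 2 (14.7 CPM) lay below small intestine replicate 2 (15.0 CPM), so that separation depends on the scaling. Its level ranged 20.1-fold over the 9 libraries and 11.9-fold within colon, the widest range of the 7 members with at least 1 CPM in every library. Within the colon the low Nox1 libraries were GFP-negative replicate 3 and GFP-high replicate 2, whose leukocyte marker sums were 2905 and 364 CPM and whose 14 stem cell markers summed to 420 and 485 CPM. In the high Nox1 library, GFP-negative replicate 2, those sums were 67.5 and 1542 CPM. The part of cell mixture in this spread was not tested, and in bulk RNA fewer cells of a type and less RNA per cell cannot be told apart.

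**Figure D1:**
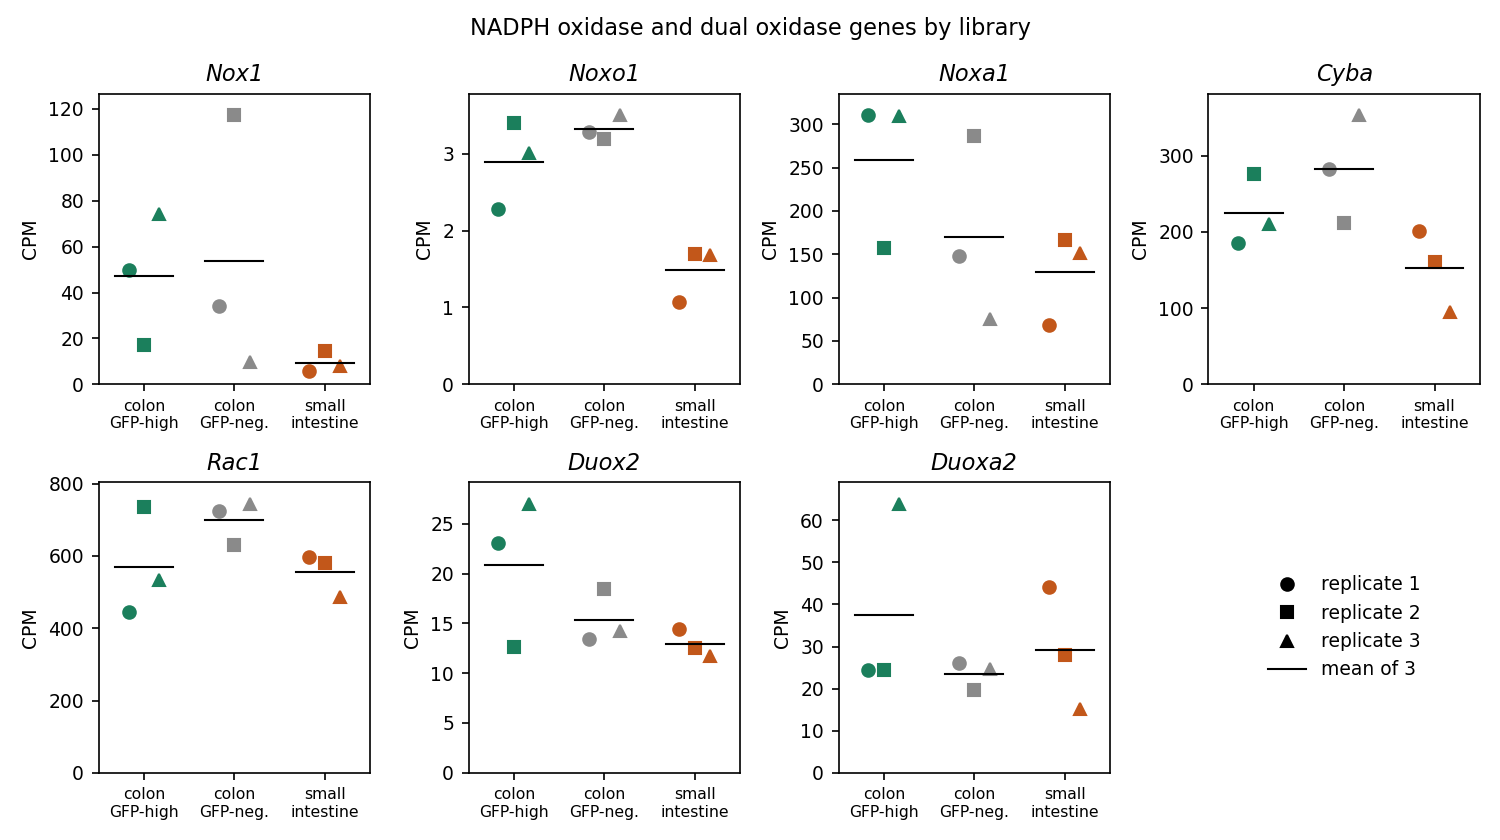
Level in CPM (linear axis from 0) of the 7 members with at least 1 CPM in each of the 9 libraries, by group; points are libraries, lines are means of 3. Nox1 spreads between 9.82 and 117 CPM within GFP-negative colon libraries, while Noxo1 stays between 3.20 and 3.51 CPM there.

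The activator Noxa1 (2:25085667-25095149, minus strand) had 311, 157 and 310 CPM in GFP-high colon libraries, 148, 287 and 75.9 CPM in GFP-negative colon and 68.9, 166 and 152 CPM in small intestinal libraries. The groups overlapped in each comparison. The same 3 colon libraries, GFP-high 1 and 3 and GFP-negative 2, were the highest for Nox1, for Noxa1 and for Duox2. They were also the 3 colon libraries with the highest Lgr5 and with the lowest leukocyte marker sums, 3.19, 21.3 and 67.5 CPM against 364, 722 and 2905 CPM in the other 3. These orders are descriptions with no test, and the part of cell mixture in them was not tested. The organiser Noxo1 (17:24696234-24700529, plus strand) was low and even, at 2.28, 3.40 and 3.01 CPM in GFP-high colon libraries, 3.28, 3.20 and 3.51 CPM in GFP-negative colon and 1.07, 1.70 and 1.69 CPM in small intestinal libraries. Here all 6 colon libraries were above all 3 small intestinal ones, although the 6 differed among themselves by no more than 1.54-fold. In the exons of Noxo1, 70.4% of the bases are shared with Tbl3 on the opposite strand, and reads in shared bases were not counted, so this level rests on the remaining 891 bases.

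The membrane partner Cyba (8:122424776-122432930, minus strand) stood at 185, 277 and 211 CPM in GFP-high colon libraries, 283, 212 and 353 CPM in GFP-negative colon and 202, 161 and 94.5 CPM in small intestinal libraries. The colon GFP-negative libraries were all above the small intestinal ones, and the GFP-high libraries overlapped both, although on total counts they too were above small intestine. p22phox also serves the oxidase of phagocytes. The colon libraries had the same order for Cyba as for the leukocyte marker sum. It ran from colon GFP-negative replicate 3 (353 and 2905 CPM) to colon GFP-high replicate 1 (185 and 3.19 CPM). On total counts Cyba was higher in GFP-high replicate 3 (243 CPM) than in replicate 2 (239 CPM), and in small intestinal libraries the orders differed. The part of leukocyte RNA in the Cyba level was not tested. Rac1 (5:143503634-143528036, minus strand), a GTPase of nearly all cells, was the most even member, with 445, 736 and 532 CPM in GFP-high colon libraries, 726, 630 and 745 CPM in GFP-negative colon and 597, 581 and 487 CPM in small intestinal libraries. The colon GFP-negative libraries were all above the small intestinal ones for Rac1 too, but its range over the 9 libraries was 1.68-fold, and 51.4% of its exon bases are shared with Daglb on the opposite strand. How many of all tested genes had colon GFP-negative libraries all above small intestinal ones was not computed, so the order is only described for Cyba and Rac1.

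Of the dual oxidases, Duox2 (2:122279247-122298449, minus strand) was measured in every library and Duox1 hardly at all. Duox2 had 23.0, 12.6 and 27.0 CPM in GFP-high colon libraries, 13.5, 18.5 and 14.2 CPM in GFP-negative colon and 14.5, 12.6 and 11.7 CPM in small intestinal libraries. The libraries labelled colon GFP-high 1 and 3 were the highest of the 9 and replicate 2 of that group lay among the small intestinal values. Its maturation factor Duoxa2 (2:122298900-122302885, plus strand), whose start lies 451 bases from that of Duox2 in the opposite direction, had 24.4, 24.5 and 64.0 CPM in GFP-high colon libraries, 26.0, 19.6 and 24.7 CPM in GFP-negative colon and 44.1, 28.0 and 15.2 CPM in small intestinal libraries. The highest Duoxa2 libraries were colon GFP-high replicate 3 and small intestine replicate 1, so that the pair did not share its order of libraries.

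Duoxa1 (2:122302191-122313730, minus strand), the partner of DUOX1, had 0, 2.69 and 1.55 CPM in GFP-high colon libraries, 0.83, 0.73 and 1.25 CPM in GFP-negative colon and 0.67, 1.01 and 0.25 CPM in small intestinal libraries. No reads were counted for it in colon GFP-high replicate 1, which allows up to 0.0286 CPM there, while replicate 2 of the same group was the highest of the 9. Duox1 (2:122315672-122347972, plus strand) had at most 41 counts in a library, with 0.038, 0.42 and 0.19 CPM in GFP-high colon, 0.16, 0.14 and 0 CPM in GFP-negative colon and 0.041, 0 and 0.32 CPM in small intestinal libraries. Fold changes of these genes had standard errors above 1 on the log2 scale and are not read. Nox4 (7:87246096-87398710, plus strand), a catalytic subunit that is active without the organiser and activator, had no count in any of the 9 libraries, as was so for 4485 of 21700 protein-coding genes (20.7%). A count of 0 allows up to 0.0232 to 0.0411 CPM, counting error only.

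To compare members with each other, levels were divided by length, as RPKM, a CPM per kilobase, over the exon bases that no other gene shares. On this scale Rac1 was the highest member in each of the 9 libraries, with means of 261 ± 68.3 in GFP-high colon, 320 ± 28.2 in GFP-negative colon and 254 ± 27.1 RPKM in small intestinal libraries (SD, n = 3 each). Cyba followed with 216 ± 45.4, 272 ± 68.1 and 147 ± 52.1 RPKM in the same groups. The Nox1 level was 16.2 ± 9.91 RPKM in GFP-high colon, 18.5 ± 19.4 RPKM in GFP-negative colon and 3.24 ± 1.58 RPKM in small intestinal libraries, and Noxo1 was 3.25 ± 0.64, 3.74 ± 0.18 and 1.67 ± 0.40 RPKM. With the deposited exon lengths, which count shared bases, Rac1 and Noxo1 come out lower, at 127 ± 33.2 and 0.96 ± 0.19 RPKM in GFP-high colon libraries, and Cyba is above Rac1 in 8 of 9 libraries.

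The ratio of Noxa1 to Nox1 on the RPKM scale was 7.73 to 17.2 in GFP-high colon, 4.54 to 14.3 in GFP-negative colon and 21.2 to 36.0 in small intestinal libraries. All 6 colon libraries thus had a lower ratio than all 3 small intestinal ones. Of single tested genes, 9.49% had all 6 colon libraries above all 3 small intestinal ones. The share of gene pairs whose ratio separates in this way was not computed. Nox1 stood at 0.86 to 11.2 times the level of its organiser Noxo1 over the 9 libraries. Duoxa2 exceeded Duox2 in each library, by 7.87 to 22.7 times.

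**Figure D2:**
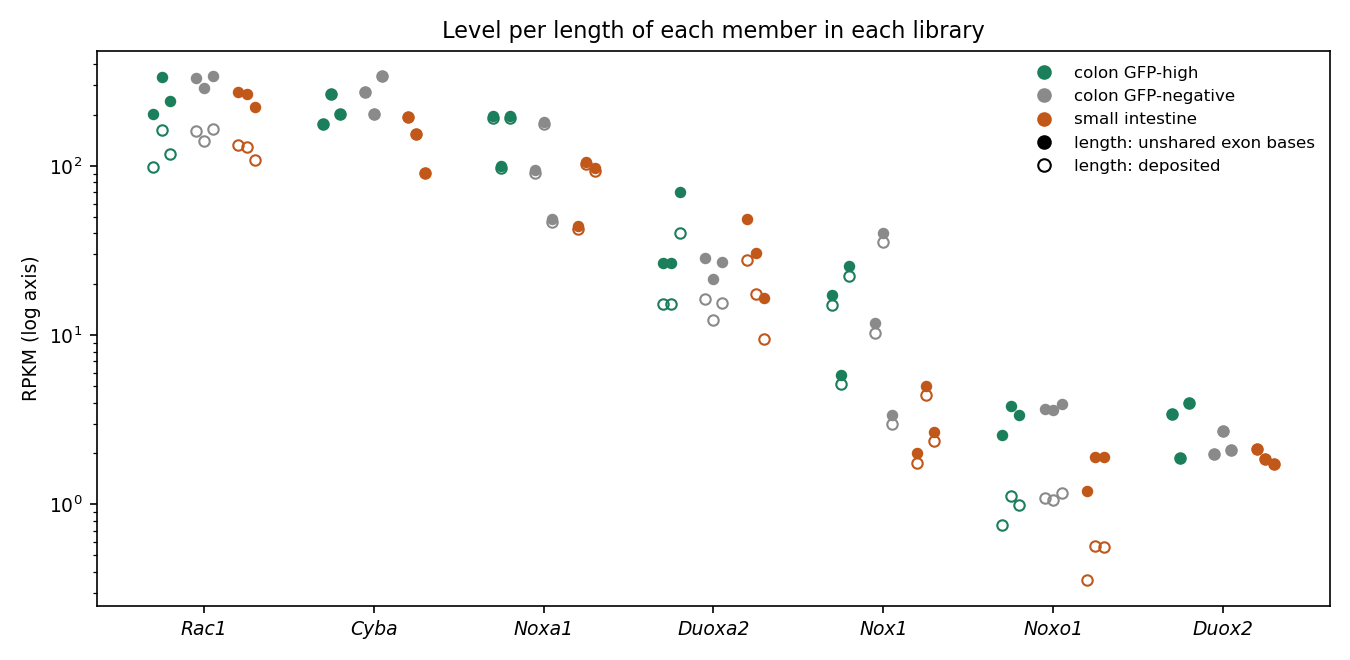
Level per length (RPKM, log axis) of 7 members in each of the 9 libraries; filled points use exon bases that no other gene shares, open points the deposited exon length. Rac1 is highest by the filled points and Cyba lies above the open points of Rac1 in 8 of 9 libraries.

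Colon GFP-high cells were compared with colon GFP-negative cells to ask which members go with the stem cell reporter. No member passed at an adjusted p under 0.05 (edgeR's quasi-likelihood test, Benjamini-Hochberg over 20610 genes), where 0.0% of all tested genes did; 222 genes had an unadjusted p under 0.05, DESeq2 called 1 gene and limma-voom 0. The log2 fold change of Nox1 was -0.19 ± 0.83 (SE; 95% interval -2.07 to 1.69), that of Noxa1 0.61 ± 0.52 and that of Duox2 0.44 ± 0.31, each with adjusted p = 1 in edgeR. Noxo1, Cyba and Rac1 had estimates of -0.20 ± 0.38, -0.33 ± 0.33 and -0.29 ± 0.26, and Duoxa2 of 0.68 ± 0.48. The interval of Nox1 includes changes of more than 2 on the log2 scale in the lower direction and so does not show equal levels. Without the colon libraries numbered 2, an analysis added after seeing the data, the Nox1 estimate was 1.499 in edgeR (adjusted p = 0.708) and 1.46 in DESeq2 (adjusted p = 0.405), with 2 libraries a fraction. In edgeR on the same libraries Noxa1 was 1.47 ± 0.51, Duox2 0.86 ± 0.31 and Duoxa2 0.80 ± 0.60, while Cyba was -0.68 ± 0.41, Rac1 -0.59 ± 0.32 and Noxo1 -0.36 ± 0.57, none past the threshold (adjusted p = 0.553 to 0.941).

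The next comparison set colon GFP-high cells against small intestine, to ask how the tissues differ. Nox1 averaged 47.1 ± 28.8 CPM in GFP-high colon and 9.41 ± 4.59 CPM in small intestinal libraries (SD, n = 3 each), a log2 fold change of 2.32 ± 0.87 (SE; 95% interval 0.35 to 4.29) with edgeR adjusted p = 0.177. Noxo1 averaged 2.90 ± 0.57 and 1.49 ± 0.36 CPM in the same groups, a log2 fold change of 0.96 ± 0.39 with edgeR adjusted p = 0.207. None of the 9 tested members passed, where 5.63% of tested genes did in this comparison. The libraries did not overlap for Nox1 and Noxo1, 2 of the 9 members, where 14.2% of all tested genes had each colon GFP-high library above each small intestinal one. On total counts Noxo1 and Cyba were the members without overlap, and Nox1 overlapped. The share of all tested genes without overlap was not computed on that scale. The other estimates were 1.01 ± 0.53 for Noxa1, 0.56 ± 0.33 for Cyba, 0.70 ± 0.31 for Duox2, 0.37 ± 0.48 for Duoxa2 and 0.04 ± 0.26 for Rac1.

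DESeq2, an alternative test, called Nox1 and Noxo1 in this comparison, at log2 fold changes of 2.35 (adjusted p = 0.0230) and 0.98 (adjusted p = 0.0447), where it called 8.38% of tested genes higher. In limma-voom neither passed, with adjusted p = 0.227 for Nox1 and 0.180 for Noxo1. Without the colon libraries numbered 2, edgeR called none of the 9 members, with 2.72 for Nox1 (adjusted p = 0.0737) and 0.96 for Duox2 (adjusted p = 0.164). On the same libraries DESeq2 gave 2.74 for Nox1 (adjusted p = 0.000376) and 0.97 for Duox2 (adjusted p = 0.0363), and 0.84 for Noxo1 (adjusted p = 0.431). In this setting, chosen after seeing the data, edgeR called 504 of 21770 tested genes. DESeq2 called 1879 of the same 21770, 1084 of them higher.

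Over both colon fractions, Nox1 was 2.42 ± 0.81 above small intestine on the log2 scale (SE; 95% interval 0.57 to 4.26) with edgeR adjusted p = 0.107, and Noxo1 1.06 ± 0.35 with edgeR adjusted p = 0.101. No member was called, where 8.76% of tested genes were. Noxo1 was the 1 member with all 6 colon libraries above all 3 small intestinal ones, where 9.49% of tested genes had that order with the deposited factors. On total counts Cyba had it as well, with 210.8 to 345 CPM in colon and 114 to 165 CPM in small intestinal libraries, but the share of tested genes with that order was not computed there. Cyba was 0.73 ± 0.30, Noxa1 0.70 ± 0.47, Duox2 0.47 ± 0.27, Rac1 0.19 ± 0.23 and Duoxa2 0.03 ± 0.41, none past the threshold. DESeq2 called Nox1 at 2.43 (adjusted p = 0.00313) and Noxo1 at 1.09 (adjusted p = 0.00443), where it called 10.9% of tested genes higher. Leaving out colon GFP-negative replicate 3 gave 2.67 for Nox1 with edgeR adjusted p = 0.0418, where 1778 of 21932 tested genes were called. That library had the most leukocyte marker RNA and also the lowest Nox1 of the 6 colon libraries, at 9.82 CPM. No member was called when any of the other 8 libraries was left out (edgeR adjusted p = 0.105 to 0.317 for Nox1).

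Colon GFP-negative cells against small intestine gave 2.51 ± 0.88 for Nox1 (edgeR adjusted p = 0.148), 1.16 ± 0.39 for Noxo1 (edgeR adjusted p = 0.135) and 0.89 ± 0.33 for Cyba (edgeR adjusted p = 0.173). None of the 9 members passed, where 5.64% of tested genes did. This comparison shares its small intestinal libraries with the one above, so the results are not independent. Without the colon libraries numbered 2, Nox1 was 1.22 in edgeR (adjusted p = 0.269) and 1.28 in DESeq2 (adjusted p = 0.168).

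**Figure D3:**
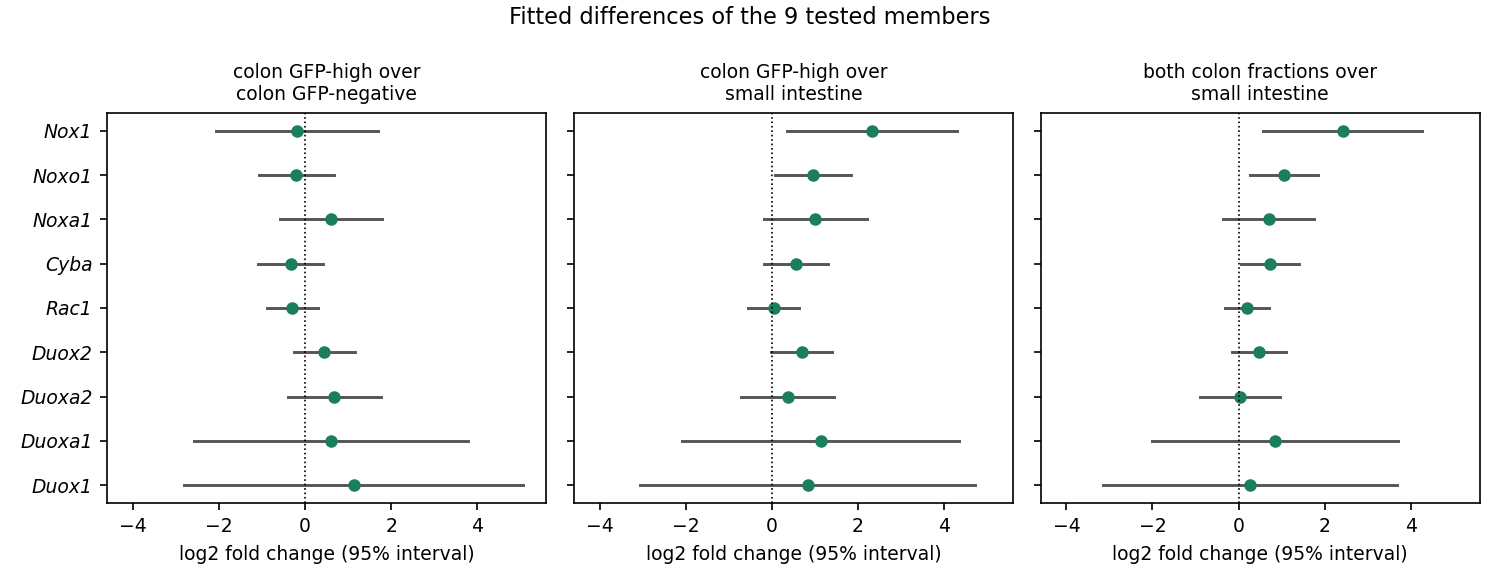
Fitted log2 fold changes of the 9 tested members with 95% intervals (bars), from left to right colon GFP-high over colon GFP-negative, colon GFP-high over small intestine and both colon fractions over small intestine. Nox1 is at -0.19 between colon fractions (1.499 without the colon libraries numbered 2), and at 2.32 and 2.42 against small intestine with intervals above 0. The intervals are not adjusted for the number of genes tested, and no member was called in these comparisons.

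The genes whose pattern over the 9 libraries was nearest to that of Nox1 were sought by the root mean square difference of log2(CPM + 0.5), each gene centred on its own mean. They were Ranbp17 (0.52), Ripply1 (0.53), Vav3 (0.53), Ahsp (0.54) and Ppp1r1a (0.55), where the median over 20609 genes was 1.46. Of these, Vav3, a guanine nucleotide exchange factor that activates Rac GTPases, was the most abundant, while the other 4 reached at most 6.46 CPM. Vav3 had 41.0, 21.5 and 82.5 CPM in GFP-high colon, 25.8, 68.1 and 10.8 CPM in GFP-negative colon and 8.14, 18.7 and 18.4 CPM in small intestinal libraries. Among the members, Noxa1 was nearest to Nox1 (0.84, place 102 of 20609), then Duox2 (1.14, place 1008) and Noxo1 (1.20, place 1589). Cyba and Rac1 were at places 7823 and 10174, and Lgr5 at place 20114 with 2.71; in small intestine Lgr5 was high and Nox1 low. The 5 nearest to Duox2 (Gm32479, ENSMUSG00000126977, Glyat, Gm6567 and Gm48936) were all under 1 CPM, where the added 0.5 flattens differences between libraries. Duoxa2 was at place 6307 from Duox2.

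**Figure D4:**
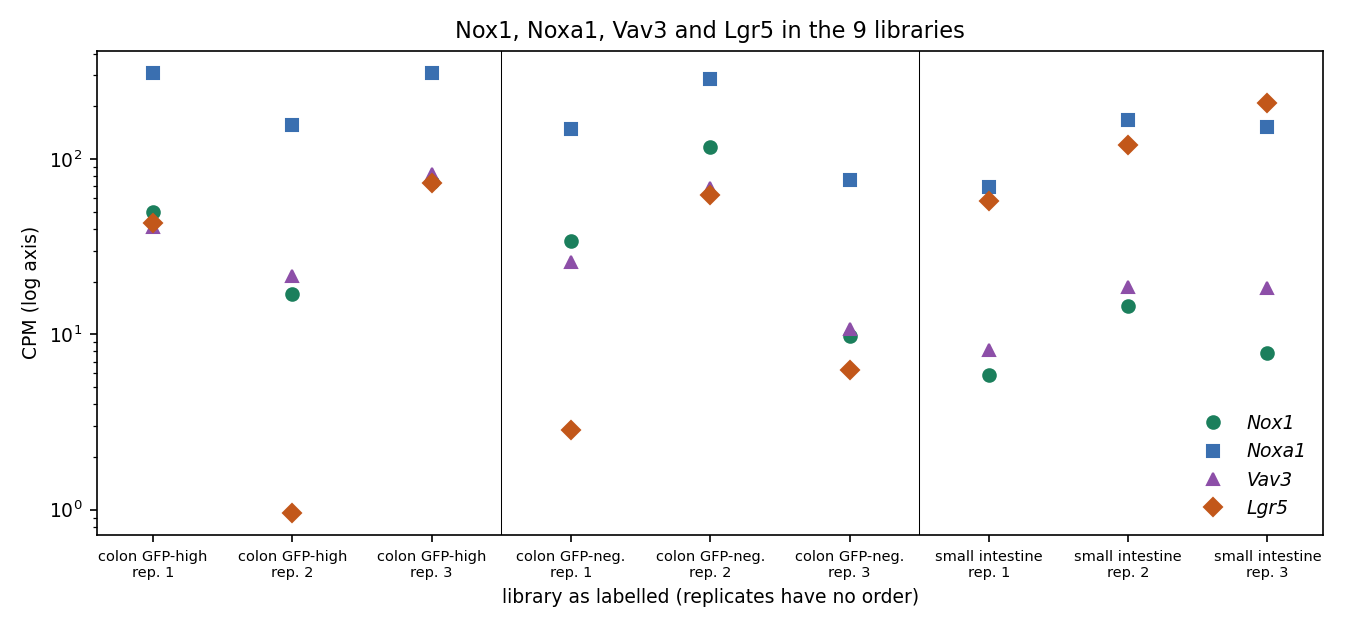
Level (CPM, log axis) of Nox1, Noxa1, Vav3 and Lgr5 in each of the 9 libraries as labelled; replicates have no order. Nox1 and Vav3 lie close in the 6 colon libraries, while Lgr5 is 0.96 CPM in colon GFP-high replicate 2, as labelled, and at 57.9 to 209 CPM in small intestine.

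Genes around the oxidases were read from 5 lists. Of 8 other oxidase genes, such as those of the phagocyte enzyme, 7 were tested and none passed in any comparison. The most abundant was Rac2, a Rac GTPase of blood cells, with 22.1, 62.7 and 122.99 CPM in GFP-high colon, 28.7, 15.4 and 336 CPM in GFP-negative colon and 22.2, 35.2 and 136 CPM in small intestinal libraries. Of 12 regulators of the oxidases 1 was lower in GFP-high colon cells than in small intestine: Vav2, another exchange factor for Rac, at 3.66 ± 1.18 CPM in GFP-high colon and 14.7 ± 2.64 CPM in small intestinal libraries, a log2 fold change of -2.002 ± 0.43 (edgeR adjusted p = 0.0316). Over all tested genes 5.63% were called in this comparison. P4hb, a protein disulphide isomerase and the most abundant of the list, was -0.73 ± 0.67.

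Of 26 genes that remove superoxide and peroxide 2 were lower in GFP-high colon cells and none higher, close to the 5.63% called over all tested genes. Cat, which encodes catalase, was 115.1 ± 25.7 CPM in GFP-high colon and 299 ± 89.2 CPM in small intestinal libraries, a log2 fold change of -1.38 ± 0.28 (edgeR adjusted p = 0.0260). Txnrd2, the mitochondrial thioredoxin reductase, was 30.2 ± 5.45 and 62.1 ± 10.8 CPM in those groups, a log2 fold change of -1.04 ± 0.25 (edgeR adjusted p = 0.0477). Gpx2, a glutathione peroxidase of the gut epithelium and the most abundant gene of the list, had 4361 ± 1341 CPM in GFP-high colon and 2125 ± 759 CPM in small intestinal libraries and did not pass (1.04 ± 0.47, edgeR adjusted p = 0.259). The calls of Cat, Txnrd2 and Vav2 did not hold in every alternative analysis: Cat passed in 11, Vav2 in 10 and Txnrd2 in 5 of 20, with adjusted p-values of up to 0.214, 0.246 and 0.292 in edgeR, and with the sign kept in all of them.

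Of 5 haem peroxidases 3 were tested and Lpo, lactoperoxidase, was higher in colon: it had 50.1, 82.7 and 52.2 CPM in GFP-high colon and 60.9, 35.5 and 55.1 CPM in GFP-negative colon libraries, against 0.055, 0.020 and 0.031 CPM in small intestinal ones. The level of 3 counts in those libraries is 0.0411, 0.0293 and 0.0232 CPM, so the small intestinal values rest on very few reads. The fitted log2 fold change was 10.79 ± 0.52 for colon GFP-high (edgeR adjusted p = 8.23e-05), a value that depends on the prior count at these small intestinal levels.

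Of 12 inflammation-responsive epithelial genes 10 were tested, and 4 were lower over both colon fractions than in small intestine, where 8.76% of all tested genes were called in either direction. The list did not go 1 way: 4 of the 10 estimates were above 0, none past the threshold. The largest were Saa1 at 5.11 ± 2.22 (edgeR adjusted p = 0.196) and Saa3 at 4.16 ± 1.90 (edgeR adjusted p = 0.216). Saa1 ranged from 0.23 to 348 CPM in colon. Nos2, the inducible nitric oxide synthase, was 0.24 ± 0.37 CPM in colon (SD, n = 6) and 25.5 ± 22.8 CPM in small intestinal libraries (n = 3), a log2 fold change of -7.18 ± 1.30 (edgeR adjusted p = 0.0106). The antimicrobial lectins Reg3g and Reg3b were at -4.06 ± 0.78 (edgeR adjusted p = 0.0138) and -3.89 ± 1.01 (edgeR adjusted p = 0.0473), and Ido1, a tryptophan-degrading enzyme, at -3.95 ± 0.98 (edgeR adjusted p = 0.0389). Without small intestine replicate 1 none of the 4 passed, with edgeR adjusted p = 0.0550 for Nos2, 0.0644 for Reg3g, 0.218 for Reg3b and 0.132 for Ido1. Small intestine replicate 1 held the highest level of each, with 4894 CPM of Reg3g against 1275 and 443 CPM in small intestine replicates 2 and 3. Of the small intestinal libraries it was also the highest for Duoxa2, at 44.1 CPM, and for Duox2, at 14.5 CPM against 12.6 and 11.7 CPM. The Duox2 order depends on the scaling: on total counts replicate 1 was the lowest of them, at 11.6 CPM against 12.9 and 14.1 CPM. The 6 enterocyte markers were also highest in small intestine replicate 1, with a summed level of 30645 CPM against 513 and 6528 CPM in replicates 2 and 3. Their sum was higher in replicate 3 than in replicate 2, as Ido1 was, while Reg3g was lower there. Goblet cell and colonocyte marker sums were highest in replicate 1 too (19013 and 5150 CPM), and stem cell and tuft cell marker sums were lowest (941 and 186 CPM). The part of cell mixture in these levels was not tested. No gene of the 5 lists passed between the colon fractions.

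**Figure D5:**
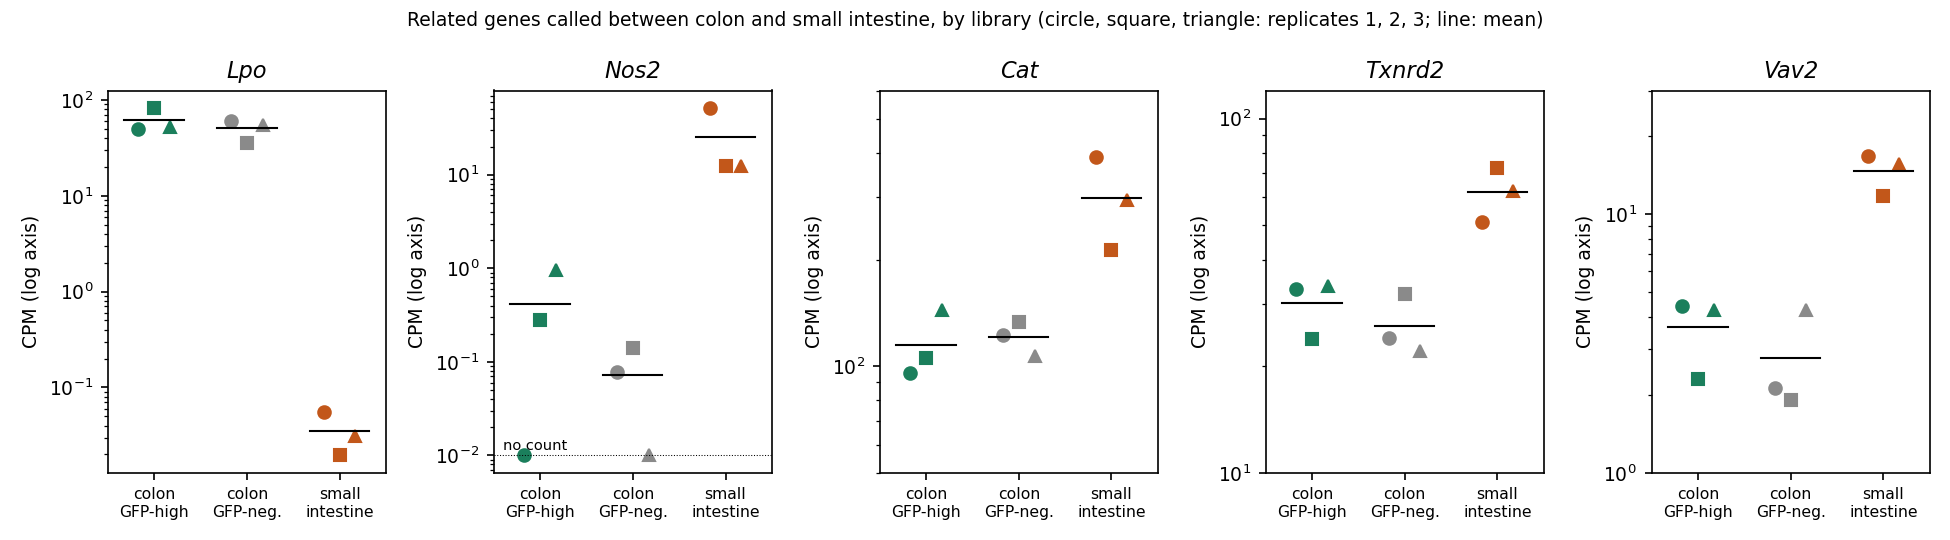
Level (CPM, log axes) by library of 5 related genes called between colon and small intestine; points are libraries, lines are means of 3, and libraries with no count are drawn on the dotted line. Lpo is at 35.5 to 82.7 CPM in colon and at most 0.055 CPM in small intestine, and Nos2, Cat, Txnrd2 and Vav2 are higher in small intestine.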

How the data were processed

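RNA of 9 libraries was read from 1 table. Per the submitters' processing notes, the authors used STAR, Subread, featureCounts and edgeR and genome build mm10; the sources used here give no versions. The deposited table holds the raw read count per gene, the library total, the normalization factor (a ratio), the exon length, and log2 values of CPM, RPKM and TPM, per the file headers. The deposited log2 CPM and RPKM were recomputed from the counts with a prior count of 2. CPM here is the count divided by the library total times its factor, scaled to a fixed library size.

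Raw counts were tested with edgeR 4.0.16 (glmQLFit and glmQLFTest, R 4.3.3) in 1 fit of all 9 libraries, with the deposited factors, filterByExpr by group (20610 genes tested, 57629 not) and Benjamini-Hochberg adjustment over all tested genes; a gene is called at an adjusted p under 0.05. DESeq2 1.42.0, limma 3.58.1 (voom), other scalings, no filter, blocks and left-out libraries were alternatives. The fit was tested on simulated counts with the fitted spread. It called 33% of 4-fold changes between colon fractions. Against small intestine it called 41% for colon GFP-high, 50% for colon GFP-negative and 57% for both fractions. Of 16-fold changes it called 93% to 98%. A member that did not pass can therefore still differ. The common biological coefficient of variation was 0.726.

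The labels do not say whether replicate numbers pair libraries. Library names also carry tags of unstated meaning, which the main fit did not use. Replicate 1 of each colon fraction shares its tag with small intestine replicate 2. The colon libraries numbered 2, whose Lgr5 went against the labels, share another tag. Replicate 3 of GFP-high colon shares its tag with small intestine replicate 3. Any sets that the tags mark are therefore spread unevenly over the groups. Exon overlaps are those of GENCODE M21 on GRCm38: of genes lying wholly inside exons of a partner with at least 10000 counts, 0 of 84 on the opposite and 0 of 180 on the same strand had a count, so shared bases were not counted. Promoters are from RefSeq (GRCm38.p6); 9 of 10 members matched by symbol. Of each list around the oxidases, genes called against small intestine (at most 6) and the most abundant gene are named. Saa1 and Saa3 are named outside this rule. The members and lists were chosen with earlier results of these data known, and the members are not a random sample of genes.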

Additional observations from a re-analysis of the deposited data

How the results depend on the processing

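Of 25 member fold changes followed through the alternatives, 20 kept their sign in each of 19 or 20 alternatives and 5 turned sign in at least 1. Of the 25, 7 passed the threshold in at least 1 alternative. These are not all member results: they leave out Duox1 and Duoxa1. For colon GFP-negative against small intestine they cover only Nox1, Noxo1, Noxa1 and Cyba. The numbers of genes called were 0 between colon fractions, 1161 for colon GFP-high, 1163 for colon GFP-negative and 1805 for both fractions against small intestine. With DESeq2 they were 1, 2713, 2870 and 3618, and DESeq2 gave Nox1 2.35, 2.51 and 2.43 in the last 3. Without both colon libraries numbered 2, chosen after seeing the data, edgeR called 504 genes for colon GFP-high and 1082 for both fractions, and DESeq2 called 700, 1879, 3148 and 2845 in the same order as above. In that setting Nox1 between colon fractions was 1.499 (edgeR) and 1.46 (DESeq2), and in DESeq2 2.74 for colon GFP-high and 2.01 for both fractions against small intestine. Rac1 for colon GFP-high against small intestine was then -0.18 (edgeR) and -0.17 (DESeq2), and Noxa1 for colon GFP-negative -0.21 and -0.15. Nox1 between colon fractions was also above 0 with total-count scaling (0.012), which moved the median of all genes there to 0.13, and in limma-voom (0.23); the cause of these turns was not tested.

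Deviations of same-numbered libraries from their group means had correlations of -0.604 to 0.304. The lowest was that of the colon libraries numbered 2, whose Lgr5 went against the labels. The correlations therefore do not decide whether the numbers are pairs, and the main fit used none. A replicate block by title number gave 508, 528 and 887 calls against small intestine, Nox1 at 0.33 between colon fractions and Duoxa2 at -0.0060 over both fractions. A replicate block by the tag in the library names gave 18, 0 and 17 calls, where 1635 genes had an unadjusted p under 0.05 for colon GFP-negative, Rac1 at -0.0085 and P4hb at 0.0086 for colon GFP-high. Colon GFP-negative replicate 3 and small intestine replicate 1 share their tags with no other library and so add nothing to the comparisons under that block. The fit then has few degrees of freedom, so the fall in calls does not show that differences are absent. No member passed under either block.

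Leaving out each library in turn gave 0 calls between colon fractions, 566 to 1373 for colon GFP-high (566 without colon GFP-high replicate 2), 530 to 1083 for colon GFP-negative (530 without its replicate 1) and 968 to 1778 for both fractions (968 without small intestine replicate 3). The count was lower by more than 1.5 times for colon GFP-high without any of its own libraries, colon GFP-negative replicate 1 or small intestine replicates 1 and 3, and for the other comparisons without colon GFP-negative replicate 1 or small intestine replicates 1 and 3, each left out alone. Nox1 moved between -0.69 (without colon GFP-negative replicate 3) and 1.10 (without colon GFP-negative replicate 2) between colon fractions, and between 1.77 and 2.88 for both fractions against small intestine. Duoxa2 moved between -0.25 and 0.80 for colon GFP-high and between -0.28 and 0.46 for both fractions, each lowest without colon GFP-high replicate 3. Rac1 moved between -0.18 and 0.19 for colon GFP-high, Noxa1 between -0.21 and 0.75 for colon GFP-negative, and P4hb between -1.30 and 0.25 for colon GFP-high. Of the list genes called, Lpo passed in 19 of 20 alternatives, Nos2 in 16, Reg3g in 15, Ido1 in 11 and Reg3b in 6 of 19. Duox1, Duoxa1 and Nox4 had 0 counts in at least 1 library, which limits what can be said of them. Duoxa1 had 0 counts in colon GFP-high replicate 1 and 247 in replicate 2, at totals of 90841832 and 106193616 counts. Colon GFP-high replicate 1 also had the fewest genes with a count, 20715, where the libraries reached up to 28206. The part of depth in these zeros and in the error of the other members was not tested.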
